A study of Mus musculus with 15 samples.

Results

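DMXAA, a flavone acetic acid analogue that activates the mouse DNA-sensing adaptor STING, was compared with vehicle in MC38 tumours 24 h after an injection into the tumour. MC38 is a mouse colon carcinoma line, and it was grown under the skin of the right flank of C57BL/6 mice. The comparison takes 7 of the 15 tumours of the study by their treatment label: 4 given 100 µg of DMXAA in 100 µL (DMXAA 1 to 4) and 3 given 100 µL of phosphate-buffered saline with 5% DMSO and 5% glucose (vehicle 1 to 3). No agent but DMXAA set the groups apart. The other 8 tumours received BO-112, a mimic of double-stranded RNA, alone or with DMXAA, and serve here only to estimate the spread between tumours. The labels call each tumour a biological replicate, and give no age, sex or cage. Whether each came from its own mouse is not said, so p-values measure a spread between tumours, pooled over all 15.

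STING sits in the membrane of the endoplasmic reticulum and is normally switched on by cyclic GMP-AMP, the product of the cytosolic DNA sensor cGAS. It recruits the kinase TBK1, which activates IRF3 and with it the gene for interferon beta, and it also activates NF-kB. Interferon beta then induces interferon-stimulated genes through its receptor. DMXAA binds mouse STING but not the human protein, and in mouse tumours it is also known as an agent that disrupts blood vessels.

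Levels are counts per scaled library size, in CPM, and changes are log2 fold changes, DMXAA less vehicle, with their SE from limma. A gene is called when its p, adjusted by Benjamini-Hochberg across the 17712 measured genes, is below 0.05. DMXAA 2 and DMXAA 3 differed from the other libraries before any comparison was made. The 1374 shortest transcripts, of at most 1195 bases, stood 1.15 and 0.49 log2 units above the other libraries there (median over transcripts). The 1373 longest stood 0.70 and 0.45 below it (differences of -0.70 and -0.45). In the other 13 libraries these medians lay between -0.27 and 0.07 for short and between -0.04 and 0.22 for long transcripts. The correlation of DMXAA 2 with its fellow DMXAA tumours had a median of 0.909. That value was 0.964 to 0.972 in DMXAA 1, 3 and 4 and 0.979 to 0.985 among vehicle tumours. Skeletal muscle genes were high in vehicle 2, DMXAA 1 and DMXAA 3. Many results below, though not all, are therefore set beside their value in DMXAA 1 and 4 alone. Many are also set beside their value after the trend on transcript length had been taken out of every library. DMXAA 1 and 4 alone are 2 tumours against 3, so that comparison borrows its spread from the other groups.

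In all, 221 genes were called, 191 higher and 30 lower with DMXAA. A change of 2-fold or more was seen in 134 of the higher and 10 of the lower genes. The 221 are 1.25% of the genes tested, 1.08% higher and 0.169% lower. Counts of called genes in the lists below are to be read against these shares. Before adjustment 18.1% of all genes had a p below 0.05, the share against which the counts at an unadjusted p in the lists below are to be read. The DMXAA and vehicle values did not overlap in 219 of the 221, where 6.52% of all genes lay wholly higher and 4.93% wholly lower. The threshold itself selects genes with such separation, so this adds no separate support. The called genes differed in length by direction. Those that rose had a median transcript length of 1753 bases, those that fell 5724 bases, and all measured genes 2858 bases. In 10 classes of genes ordered by length, the median change went from 0.38 in the shortest to -0.27 in the longest, as the plot by length shows. In DMXAA 1 and 4 alone the same medians were -0.09 and 0.04.

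**Figure D1:**
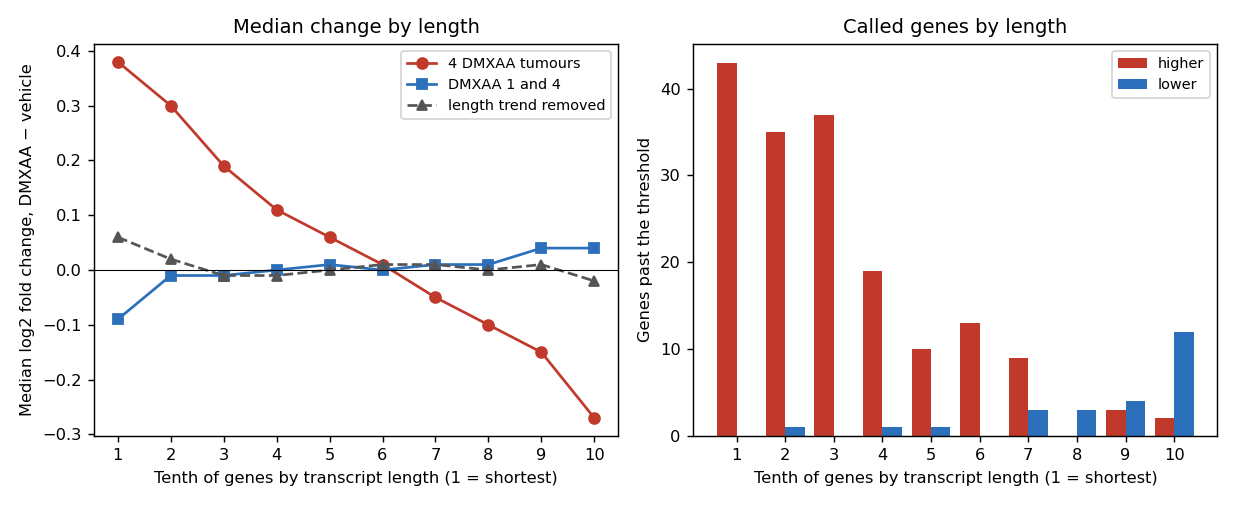
Left, the median log2 fold change (DMXAA less vehicle) of 13722 genes in 10 classes by transcript length, for all 4 DMXAA tumours, for DMXAA 1 and 4, and with the length trend removed; the first line runs from 0.38 to -0.27 and the others stay between -0.09 and 0.06. Right, the number of called genes in each class, with 43 higher genes in the shortest and 12 lower genes in the longest.

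Most genes that rose were also called without the short-transcript-rich libraries, and fewer of those that fell were. Of the 191 higher genes, 144 were also called higher in DMXAA 1 and 4 alone, 98 with the length trend removed and 88 in both. Of the 30 lower genes, 13 remained called in DMXAA 1 and 4, 17 with the trend removed and 8 in both. The median change of the higher genes was 1.49 in DMXAA 1 and 4 and 1.26 in DMXAA 2 and 3, and 112 of the 191 changed more in DMXAA 1 and 4. The median of the lower genes was -0.79 in DMXAA 1 and 4 and -1.03 in DMXAA 2 and 3, and 6 of the 30 changed more in the former. Both values are set against the same 3 vehicle tumours, and the genes were called on these same DMXAA tumours. DMXAA 1 and 4 alone called 373 genes in all, 336 higher (1.90%) and 37 lower (0.209%). List counts in DMXAA 1 and 4 below are to be read against these shares. With the length trend removed 153 were called, 119 higher (0.672%) and 34 lower (0.192%).

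**Figure D2:**
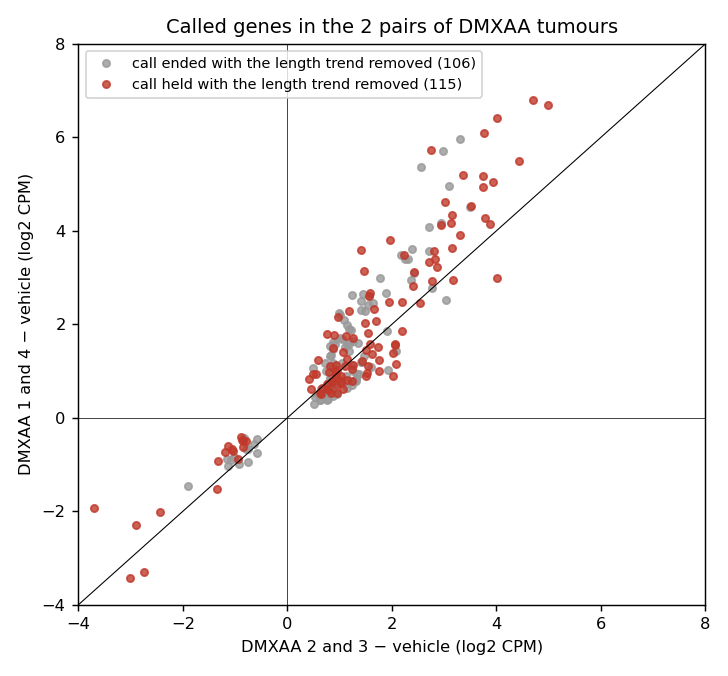
Each point is 1 of the 221 called genes, with its difference from the mean of the 3 vehicle tumours in DMXAA 2 and 3 (horizontal) and in DMXAA 1 and 4 (vertical), both in log2 CPM; the diagonal marks equal change. Red points (115) stayed called with the length trend removed and grey points (106) did not. All 221 keep their sign in both pairs, which follows largely from calling them on these same tumours.

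How many genes passed depended on which vehicle tumours were in the fit. Leaving out vehicle 1 gave 25, vehicle 3 gave 51 and vehicle 2 gave 272. Leaving out 1 DMXAA tumour gave 161 to 376. It was 4 when only the 7 tumours entered the fit, which were Ptx3, Cxcl5, Rarres2 and Saa3. The tumours given BO-112 then no longer entered the spread, and their part in the fall was not tested. A total of 25 genes (0.141%) were called with each of the 7 tumours left out in turn, 24 of them higher and 1, Pkp1, lower. They are the same 25 that were called without vehicle 1, so the other fits that left out 1 tumour narrowed the set no further. Of the 25, 24 were also called in DMXAA 1 and 4 and with the length trend removed. These held best with tumours left out, and are named the firmest changes for that alone. They include Ptx3, Ly6c2, Plac8, Rtp4, Oas1a, Ifi27l2a, Lcn2, Cxcl5, Saa3, Rarres2, Timp1, Cd5l and Ccl4. Cxcl5 was not called by limma-voom, which called 93 genes in all.

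**Figure D3:**
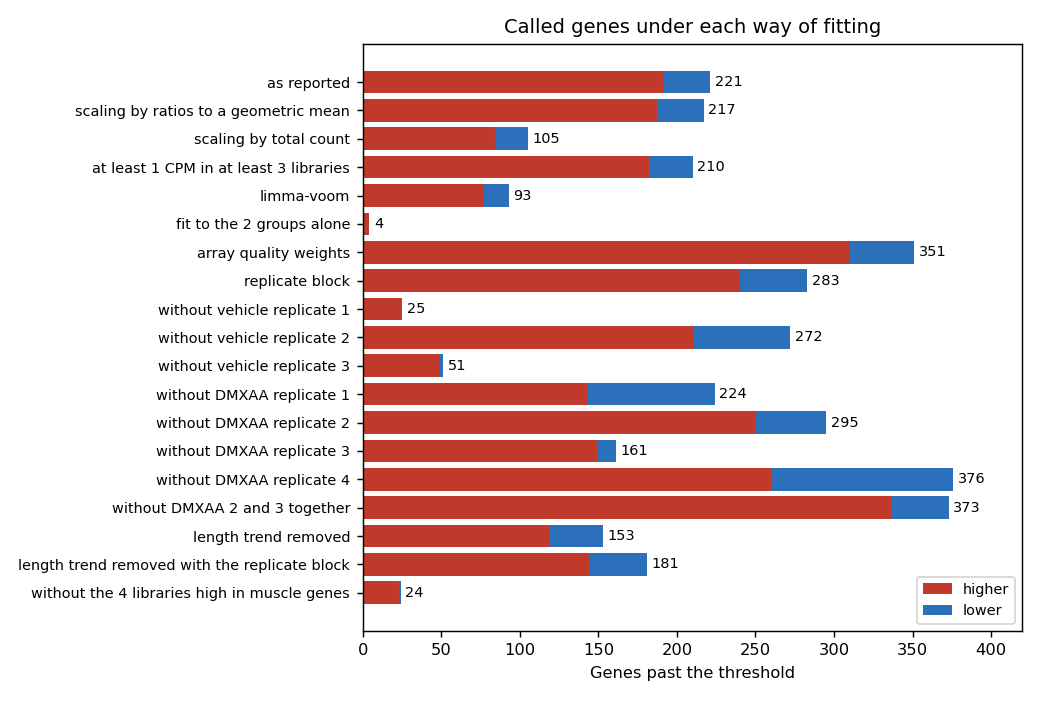
Bars give the number of called genes, higher in red and lower in blue, in the reported fit (221) and in each of the other fits. The count runs from 4 in the fit to the 2 groups alone to 376 without DMXAA 4.

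Promoter sequences are shown for 4 of the 25 genes, 2 from the interferon lists and 2 from the inflammatory lists, because they carry the firmest changes of each kind. They come from RefSeq on build GRCm38.p6 and run 5′ to 3′ along the gene's own strand, from 250 bases before the start of transcription to 50 after it. Rtp4 and Ifi27l2a ranked between them but had no entry. Capitals mark 2 motifs, searched on both strands: GAAANNGAA, a core of the interferon-stimulated response element, and GGAANNNCC, a core of the NF-kB site. They do not overlap each other in these windows.
Plac8, chr5:100572156-100572455, minus strand: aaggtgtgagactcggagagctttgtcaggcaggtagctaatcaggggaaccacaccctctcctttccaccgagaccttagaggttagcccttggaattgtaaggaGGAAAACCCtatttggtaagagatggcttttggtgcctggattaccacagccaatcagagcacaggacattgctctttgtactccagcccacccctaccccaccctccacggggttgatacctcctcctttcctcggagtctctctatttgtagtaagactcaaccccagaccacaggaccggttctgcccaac
Oas1a, chr5:120907476-120907775, minus strand: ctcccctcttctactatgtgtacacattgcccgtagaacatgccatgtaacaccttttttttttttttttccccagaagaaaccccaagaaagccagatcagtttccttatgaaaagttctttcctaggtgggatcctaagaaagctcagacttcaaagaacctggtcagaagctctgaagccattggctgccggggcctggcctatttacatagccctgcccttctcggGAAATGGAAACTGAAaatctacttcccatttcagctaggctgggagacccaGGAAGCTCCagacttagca
Ptx3, chr3:66219637-66219936, plus strand: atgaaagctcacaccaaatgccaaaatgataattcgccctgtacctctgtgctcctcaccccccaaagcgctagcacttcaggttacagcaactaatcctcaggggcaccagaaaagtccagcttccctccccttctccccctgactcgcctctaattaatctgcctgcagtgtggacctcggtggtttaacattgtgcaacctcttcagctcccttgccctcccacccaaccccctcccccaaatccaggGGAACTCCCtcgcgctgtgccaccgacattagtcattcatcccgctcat
Lcn2, chr2:32387690-32387989, minus strand: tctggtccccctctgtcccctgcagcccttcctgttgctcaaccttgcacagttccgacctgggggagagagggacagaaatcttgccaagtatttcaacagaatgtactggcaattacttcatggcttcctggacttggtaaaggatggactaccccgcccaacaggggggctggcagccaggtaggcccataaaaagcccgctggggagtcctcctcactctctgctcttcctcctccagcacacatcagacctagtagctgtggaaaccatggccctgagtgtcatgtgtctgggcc

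The Oas1a window holds 2 overlapping matches to GAAANNGAA and 1 to GGAANNNCC, the Plac8 and Ptx3 windows 1 match each to GGAANNNCC, and the Lcn2 window neither string of letters. GAAANNGAA occurred in 8.57% of the 27025 promoters of the table, in 25.6% of the 133 promoters found for genes that rose, and in 19 of the 31 found for the antiviral list described next (61.3%). GGAANNNCC occurred in 18.4% of all promoters, in 25.6% of those of genes that rose and in 35.5% of those of the antiviral list. Among the 11860 promoters of measured genes the shares were 7.55% for GAAANNGAA and 21.8% for GGAANNNCC. These are counts of letters in a window and not of bound sites.

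The genes for STING and its signalling chain were measured before their targets. Tmem173, which encodes STING, stood at 70.5, 80.9 and 57.6 CPM in vehicle 1 to 3 and at 71.5, 65.7, 65.7 and 58.5 CPM in DMXAA 1 to 4. The groups overlapped, and the change was -0.08 ± 0.15 with a 95% interval from -0.40 to 0.24 (adjusted p = 0.766). Of 19 measured genes of the pathway, 1 rose, and the median change was 0.08. It was Ifi204, a nuclear DNA sensor of the PYHIN family that is itself induced by interferon, at 72.5, 92.9 and 56.4 CPM with vehicle and 213, 144, 121 and 195 CPM with DMXAA (1.18 ± 0.20, adjusted p = 0.0114). Its call ended without vehicle 1 or vehicle 3, with an adjusted p of up to 0.0795, and held in DMXAA 1 and 4 (1.49). The palmitoyltransferase gene Zdhhc1 was at -0.44 ± 0.13 (adjusted p = 0.135) and was called lower with the length trend removed (-0.62, adjusted p = 0.0352).

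Ifnb1, the gene for interferon beta, was near the limit of detection a day after injection. It stood at 0.142, 0.0605 and 0.119 CPM with vehicle and at 0.286, 0.604, 0.277 and 0.153 CPM with DMXAA. Each DMXAA tumour was above each vehicle tumour, but these levels come from 1 to 8 reads and the change of 1.28 ± 0.42 was not called (adjusted p = 0.168). Ifng, the interferon of T and NK cells, stood at 1.28, 2.54 and 0.0593 CPM with vehicle and at 2.52, 6.49, 1.94 and 1.38 CPM with DMXAA (1.96 ± 0.90, adjusted p = 0.272), and the groups overlapped. None of the 10 measured interferon and receptor genes was called by limma or limma-voom, and 3 had an unadjusted p below 0.05. Besides Ifnb1 and Ifng that was Il10rb, a chain shared by the receptors of interleukin 10 and interferon lambda (0.50 ± 0.12, adjusted p = 0.0549).

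Of the 41 antiviral interferon-stimulated genes measured, 12 rose, where 1.08% of all genes did, and 39 had a positive change. In 20 the DMXAA values lay wholly above vehicle, where 6.52% of all genes did. The list median was 0.77, against 0.01 over all genes, and it was 1.01 in DMXAA 1 and 4 and 0.74 with the length trend removed. In DMXAA 1 and 4 the number that rose was 21, and it was 12 with the trend removed, 8 by limma-voom, 4 without vehicle 1 and 5 without vehicle 3. Rtp4, a chaperone of membrane receptors, stood at 61.4, 76.0 and 44.1 CPM with vehicle and at 126, 146, 137 and 133 CPM with DMXAA (1.20 ± 0.15, adjusted p = 0.00198). The DMXAA values lay close together and clear of vehicle. Oas1a, which makes the 2-5A messenger that activates RNase L, stood at 45.1, 60.7 and 39.7 CPM against 105, 116, 111 and 92.5 CPM (1.15 ± 0.16, adjusted p = 0.00303). Ifi27l2a, a small interferon-induced membrane protein, rose from 33.3, 47.2 and 33.6 CPM to 154, 184, 133 and 79.6 CPM (1.81 ± 0.23, adjusted p = 0.00216).

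Plac8, a cysteine-rich protein of myeloid and lymphoid cells, changed most among the antiviral genes with the smallest p. It went from 19.8, 24.6 and 10.8 CPM with vehicle to 205, 134, 106 and 84.6 CPM with DMXAA (2.85 ± 0.31, adjusted p = 0.000957), highest in DMXAA 1. Rtp4, Oas1a, Ifi27l2a and Plac8 kept their calls with each tumour left out, in DMXAA 1 and 4 and with the length trend removed. Bst2, the tether that holds budding virions to the cell, did not keep its call in all of these fits. It stood at 222, 276 and 161 CPM with vehicle and at 405, 1210, 623 and 395 CPM with DMXAA (1.46 ± 0.32, adjusted p = 0.0432). Its 2 highest values were in DMXAA 2 and 3, as were those of Rtp4 and Oas1a. In DMXAA 1 and 4 the change of Bst2 was 0.90 (adjusted p = 0.0876). Its call also ended without vehicle 1, vehicle 3 or DMXAA 3 (adjusted p of up to 0.222). It held with the length trend removed (1.115, adjusted p = 0.0307).

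Of 25 regulators of the interferon response 4 rose, 3 were called by limma-voom, and the list median was 0.30. Isg15, the ubiquitin-like modifier, stood at 69.1, 97.0 and 64.2 CPM with vehicle and at 155, 261, 188 and 173 CPM with DMXAA (1.34 ± 0.20, adjusted p = 0.00552). Usp18, which removes that modifier and dampens receptor signalling, stood at 28.8, 38.0 and 25.5 CPM against 71.7, 68.7, 65.1 and 72.9 CPM (1.20 ± 0.18, adjusted p = 0.00612). Irf7, the factor that amplifies interferon production, stood at 136, 197 and 89.0 CPM against 530, 278, 366 and 363 CPM (1.48 ± 0.26, adjusted p = 0.0136). In each of these genes every DMXAA tumour was above every vehicle tumour. The 3 calls held in DMXAA 1 and 4 (1.12, 1.25 and 1.71) and with the length trend removed (0.99, 0.97 and 1.36). They ended without vehicle 1, with an adjusted p of 0.0506 for Isg15 and 0.0514 for Usp18, and that of Irf7 also without vehicle 3 (0.0879).

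Targets of interferon gamma showed no called change. None of the 26 measured members, among them guanylate-binding proteins and immunity-related GTPases, was called by limma or limma-voom, and 5 had an unadjusted p below 0.05, a share near the 18.1% of all genes. The list median was 0.30. The vehicle tumours were far apart in this list, with mean log2 CPM of 6.50, 6.997 and 5.05, against 6.21 to 6.72 with DMXAA. Cxcl9, an attractant of activated T cells, stood at 269, 413 and 42.0 CPM with vehicle and at 329, 193, 154 and 179 CPM with DMXAA (0.29 ± 0.56, adjusted p = 0.780). Without vehicle 3 its change was -0.71. Cxcl10, a related attractant, stood at 317, 411 and 105 CPM against 279, 498, 304 and 343 CPM (0.54 ± 0.37, adjusted p = 0.406), and at -0.06 without vehicle 3. Psmb9, a catalytic subunit of the immunoproteasome, was at 0.79 ± 0.29 (adjusted p = 0.204), with its highest value of 316 CPM in DMXAA 2.

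**Figure D4:**
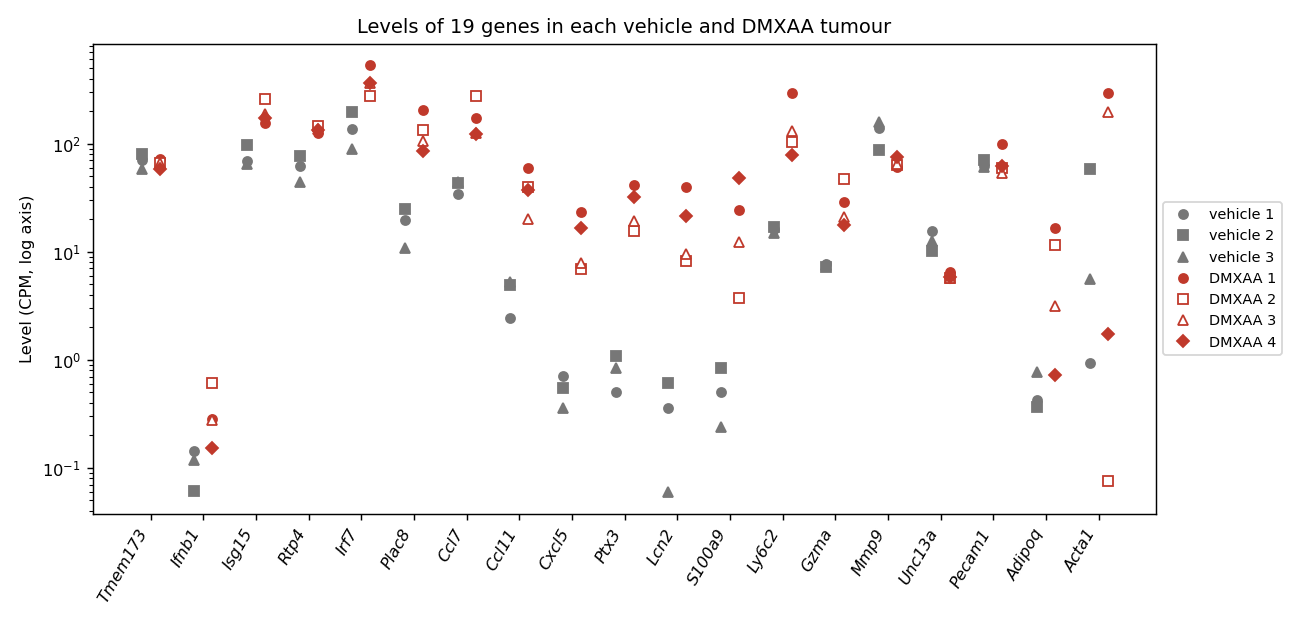
Levels in CPM on a log axis of 19 genes in each tumour, vehicle in grey and DMXAA in red, with open symbols for DMXAA 2 and 3. The DMXAA tumours lie wholly above vehicle for the genes from Ifnb1 to Gzma and wholly below for Mmp9 and Unc13a, and the groups overlap for Tmem173, Pecam1, Adipoq and Acta1.

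Of 12 measured genes for neutrophil attractants and growth factors, 3 rose, with a median of 0.92. In DMXAA 1 and 4 alone 5 were called, and none by limma-voom. Cxcl5 stood at 0.712, 0.545 and 0.356 CPM with vehicle and at 23.5, 6.87, 7.83 and 16.5 CPM with DMXAA (4.46 ± 0.65, adjusted p = 0.00552). Cxcl2 stood at 0.925, 0.484 and 0.297 CPM against 13.6, 1.96, 9.21 and 60.2 CPM (4.35 ± 0.91, adjusted p = 0.0303). Both ligands of the receptor CXCR2 were higher in DMXAA 1 and 4 than in DMXAA 2 and 3, and Cxcl2 differed over 30-fold within the DMXAA group. Cxcl1, another ligand of that receptor, rose by 1.17 ± 0.24 (adjusted p = 0.0279). The call of Cxcl5 held with each tumour left out. Those of Cxcl2 and Cxcl1 ended without vehicle 1, vehicle 2, vehicle 3 or DMXAA 1, that of Cxcl2 also without DMXAA 3 (adjusted p of up to 0.174), and both ended with the length trend removed.

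Of 24 chemokine genes for monocytes and lymphocytes 7 rose, with a list median of 0.60. In DMXAA 1 and 4 alone 4 were called, and 5 by limma-voom. Ccl11 (eotaxin), the attractant of eosinophils, rose from 2.42, 4.90 and 5.28 CPM to 59.9, 39.8, 19.95 and 37.4 CPM (3.19 ± 0.49, adjusted p = 0.00594). Ccl4, an inflammatory chemokine, rose from 4.98, 11.1 and 1.84 CPM to 27.7, 26.9, 23.1 and 39.9 CPM (2.61 ± 0.40, adjusted p = 0.00659). Ccl7, which draws monocytes through CCR2, rose from 33.8, 43.0 and 44.4 CPM to 173, 274, 124 and 123 CPM (2.03 ± 0.32, adjusted p = 0.00675). None of these values overlapped between the groups. The 3 calls held in DMXAA 1 and 4 (3.56, 2.82 and 1.86) and with the length trend removed. Without vehicle 1 the calls of Ccl11 and Ccl7 ended (adjusted p of 0.0527 and 0.0536), and only 1 gene of the list, Ccl4, was called there.

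Among 15 homeostatic chemokine genes 1 rose, none was called by limma-voom, and the median was 0.67. Cxcl13, the attractant of B cells, went from 0.498, 0.605 and 0.119 CPM to 10.6, 3.47, 2.98 and 4.09 CPM (3.65 ± 0.68, adjusted p = 0.0187), with the highest value in DMXAA 1. Its call held in DMXAA 1 and 4 (4.16) and ended without vehicle 1 or vehicle 3 (adjusted p of up to 0.124). Cxcl12, a chemokine of stromal cells, was at 1.24 ± 0.40 (adjusted p = 0.161).

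Cytokines and NF-kB targets were mostly not called. Of 32 measured genes 1 rose, none was called by limma-voom, 13 had an unadjusted p below 0.05, and the median was 0.23. Il1rn, the secreted antagonist of interleukin 1, stood at 33.2, 58.3 and 24.9 CPM with vehicle and at 163, 67.9, 77.3 and 181 CPM with DMXAA (1.61 ± 0.34, adjusted p = 0.0330), and the DMXAA 2 value lay close to vehicle 2. Its change in DMXAA 1 and 4 was 2.24 (adjusted p = 0.00577), and its call ended without vehicle 1, vehicle 3 or DMXAA 1 (adjusted p of up to 0.205) and with the length trend removed. Tnf stood at 7.05, 11.6 and 3.02 CPM against 17.3, 15.5, 14.8 and 17.7 CPM. All DMXAA values of Tnf were above vehicle, but the change of 1.37 ± 0.34 was not called (adjusted p = 0.0678). Il6 stood at 0.498, 0.363 and 0.593 CPM against 3.14, 1.21, 0.831 and 1.99 CPM (1.67 ± 0.44, adjusted p = 0.0845), and was called in DMXAA 1 and 4 (2.32, adjusted p = 0.00953).

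Acute phase and complement genes were among the firmest changes. Of 28 measured, 8 rose, with a median of 0.96, and 3 were called by limma-voom. Of the 8, 5 were called with each tumour left out. Ptx3, a soluble pattern receptor made at sites of inflammation, stood at 0.498, 1.09 and 0.830 CPM with vehicle and at 41.1, 15.5, 19.3 and 31.8 CPM with DMXAA. Its change was 4.97 ± 0.51 with an adjusted p of 0.000877, and it was also called in the fit to the 7 tumours alone. Saa3, a serum amyloid A protein made outside the liver, stood at 11.03, 9.20 and 4.92 CPM against 80.2, 89.3, 57.0 and 47.7 CPM (3.06 ± 0.45, adjusted p = 0.00552). Lcn2, which withholds iron from bacteria by binding their siderophores, stood at 0.356, 0.605 and 0.0593 CPM against 40.1, 8.23, 9.56 and 21.2 CPM (5.84 ± 0.75, adjusted p = 0.00227). It was lowest in DMXAA 2 and 3, and still above every vehicle tumour there. All 3 calls held in DMXAA 1 and 4 (5.50, 2.96 and 6.70) and with the length trend removed (4.76, 2.96 and 5.51).

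Rarres2 encodes chemerin, an attractant of cells that bear the receptor Cmklr1. It stood at 2.99, 4.54 and 1.84 CPM with vehicle and at 62.5, 31.8, 27.0 and 31.6 CPM with DMXAA (3.61 ± 0.44, adjusted p = 0.00198). Rbp4, the carrier of retinol, rose by 4.03 ± 0.79 (adjusted p = 0.0228), and G0s2, an inhibitor of the fat-splitting lipase ATGL, by 4.03 ± 0.73 (adjusted p = 0.0166). All 3 genes are also expressed in fat tissue, and adipocyte markers differed between these tumours. The 13 measured adipocyte markers summed to 39.3 to 53.6 CPM with vehicle and to 360, 457, 118 and 57.1 CPM in DMXAA 1 to 4. Adipoq, the gene for adiponectin, stood at 0.427, 0.363 and 0.771 CPM against 16.4, 11.6, 3.12 and 0.716 CPM. In DMXAA 4, the lowest DMXAA tumour in that sum, Rarres2 was 31.6 CPM, Rbp4 1.48 CPM and G0s2 7.77 CPM. With vehicle these 3 were at most 4.54, 0.214 and 0.237 CPM. Of the adipocyte markers, Lpl, Pparg and Cfd stood at 29.4, 4.75 and 6.75 CPM in DMXAA 4. With vehicle they were at most 15.8, 2.66 and 4.06 CPM. The mean log2 CPM of the adipocyte list was -0.23 in DMXAA 4, against 0.14 to 0.25 with vehicle. The calls of Rbp4 and G0s2 ended without vehicle 1 or vehicle 3 (adjusted p of up to 0.131). None of the adipocyte markers was called by limma or limma-voom (5 had an unadjusted p below 0.05, median 1.75). Cfd (adipsin) was at 3.70 ± 1.63 (adjusted p = 0.263) and Pparg, the regulator of fat cell formation, at 1.48 ± 0.36 (adjusted p = 0.0574), called in DMXAA 1 and 4.

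Of 19 measured neutrophil markers 6 rose and 1 fell, 18 had a positive change and 16 an unadjusted p below 0.05, and the median was 2.34. In DMXAA 1 and 4 the median was 3.48 with 8 higher, and limma-voom called 1 gene of the list. In a bulk tumour more cells of a type and more RNA per cell cannot be told apart, here and below. S100a9, a subunit of the alarmin calprotectin, stood at 0.498, 0.848 and 0.237 CPM with vehicle and at 24.3, 3.70, 12.3 and 47.8 CPM with DMXAA (4.93 ± 0.79, adjusted p = 0.00820). Its partner S100a8 stood at 0.641, 1.03 and 0.119 CPM against 11.5, 2.72, 5.89 and 19.01 CPM (4.03 ± 0.81, adjusted p = 0.0257). Both were highest in DMXAA 4 and lowest in DMXAA 2. Slpi, an inhibitor of neutrophil elastase, rose by 5.21 ± 0.77 (adjusted p = 0.00552) and was lowest in DMXAA 2, at 1.74 CPM, and highest in DMXAA 4, at 37.2 CPM.

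The defining surface marker of neutrophils, Ly6g, had 0 reads in each vehicle tumour and 0.0755 to 0.381 CPM with DMXAA, so that its level is set by few reads. Il1f9, the gene for interleukin 36 gamma, rose by 4.64 ± 0.92 (adjusted p = 0.0246). The calls of S100a9, S100a8 and Il1f9 ended without vehicle 1 or vehicle 3 (adjusted p of up to 0.165), and that of Slpi without vehicle 1 (0.0506). Those of S100a8 and Il1f9 also ended with the length trend removed. Mmp9, a gelatinase stored by neutrophils and made by other cells too, fell. It stood at 139, 88.1 and 158 CPM with vehicle and at 60.2, 63.7, 65.1 and 75.8 CPM with DMXAA (-0.92 ± 0.18, adjusted p = 0.0258). Its call held with the length trend removed, and ended in DMXAA 1 and 4 (-0.88, adjusted p = 0.0765) and without vehicle 1, vehicle 3 or DMXAA 3 (adjusted p of up to 0.169). Timp1, an inhibitor of such enzymes, rose from 50.0, 59.9 and 58.9 CPM to 190, 226, 152 and 137 CPM (1.63 ± 0.23, adjusted p = 0.00412) in every fit that left out a tumour.

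Of 18 monocyte markers 4 rose and 2 were called by limma-voom, with a list median of 0.77, 1.04 in DMXAA 1 and 4. Ly6c2, the marker of inflammatory monocytes, stood at 16.4, 16.9 and 14.8 CPM with vehicle and at 291, 104, 130 and 78.0 CPM with DMXAA (3.04 ± 0.32, adjusted p = 0.000877). The vehicle values were nearly equal and the DMXAA values several times higher. Ms4a4c, a membrane protein of monocytes, rose from 53.2, 72.7 and 34.9 CPM to 186, 166, 143 and 126 CPM (1.58 ± 0.21, adjusted p = 0.00227). Fcgr1, the high-affinity receptor for IgG, rose by 1.03 ± 0.22 (adjusted p = 0.0330). Its call held in DMXAA 1 and 4 (1.18) and ended with the length trend removed (0.93, adjusted p = 0.0528). It also ended without vehicle 1, vehicle 3, DMXAA 1 or DMXAA 3 (adjusted p of up to 0.182). Of other myeloid genes with calls that held with each tumour left out, Ifitm6, a myeloid member of the interferon-induced transmembrane family, rose by 3.74 ± 0.47. Lrrc25, a membrane protein of myeloid cells, rose by 0.97 ± 0.13, and Cd5l, a secreted protein of macrophages that binds lipids, by 4.35 ± 0.54.

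The macrophage list did not move as a group. None of its 25 measured genes was called by limma or limma-voom, 7 had an unadjusted p below 0.05, and the median was 0.27, with 2 genes called higher in DMXAA 1 and 4. Adgre1, the marker F4/80, stood at 154, 191 and 194 CPM with vehicle and at 187, 171, 171 and 164 CPM with DMXAA (-0.04 ± 0.14, adjusted p = 0.866). Csf1r, the receptor for macrophage growth factor, was at -0.51 ± 0.16 (adjusted p = 0.153). Mrc1, the mannose receptor, stood at 151, 167 and 441 CPM against 104, 190, 62.5 and 94.9 CPM (-1.10 ± 0.47, adjusted p = 0.255), with vehicle 3 apart from the rest.

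Of 24 genes of cytotoxic cells 2 rose and 2 were called by limma-voom, with a list median of 0.59. The unadjusted p was below 0.05 in 12. Gzma, a granule protease of NK and T cells, stood at 7.76, 7.26 and 7.59 CPM with vehicle and at 28.6, 47.5, 20.8 and 17.7 CPM with DMXAA (1.81 ± 0.30, adjusted p = 0.00926). Nkg7, a protein of the granule membrane, stood at 11.1, 14.6 and 8.12 CPM against 26.2, 32.4, 23.7 and 16.8 CPM (1.13 ± 0.21, adjusted p = 0.0197). Both were highest in DMXAA 2 and lowest in DMXAA 4, and both were called in DMXAA 1 and 4 (1.57 and 0.93). Without vehicle 1 both calls ended (0.0533 for Gzma), and that of Nkg7 also without vehicle 3 (0.131) and with the length trend removed. Prf1, the pore former perforin, was at 0.97 ± 0.26 (adjusted p = 0.0915). None of the 28 T cell markers was called by limma or limma-voom, with 6 at an unadjusted p below 0.05, a share near that of all genes, and a median of 0.44. Cd8a stood at 8.97, 17.6 and 2.37 CPM against 19.7, 10.9, 14.1 and 11.4 CPM (0.92 ± 0.54, adjusted p = 0.344).

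**Figure D5:**
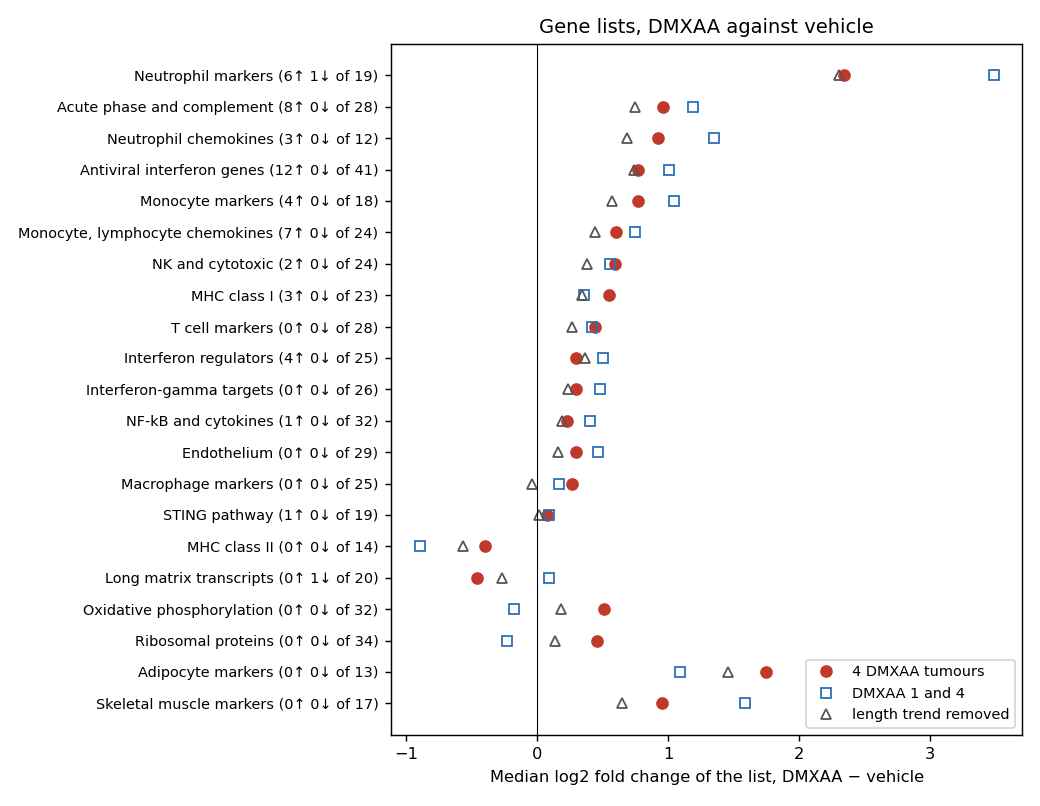
Median log2 fold change, DMXAA less vehicle, of 21 gene lists in all 4 DMXAA tumours (red), in DMXAA 1 and 4 (blue) and with the length trend removed (grey), with the number of called genes of each list by the arrows. The neutrophil list stands at 2.34 and 3.48, and oxidative phosphorylation and ribosomal protein genes change sign between all 4 tumours and DMXAA 1 and 4.

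DMXAA is known for its effect on tumour vessels, and endothelial genes were looked at for that reason. None of 29 endothelial markers was called by limma or limma-voom; 7 had an unadjusted p below 0.05, where 18.1% of all genes did, and the median was 0.30. Pecam1 (CD31) stood at 62.2, 70.5 and 60.3 CPM with vehicle and at 99.1, 59.8, 53.9 and 62.3 CPM with DMXAA (0.06 ± 0.18, adjusted p = 0.869). Cdh5, the junction cadherin of endothelium, stood at 45.9, 46.4 and 39.5 CPM against 71.6, 20.1, 30.9 and 47.5 CPM (-0.20 ± 0.36, adjusted p = 0.761), and was at 0.41 in DMXAA 1 and 4. Kdr, the main VEGF receptor, was at 0.45 ± 0.29 (adjusted p = 0.384). Pecam1, Cdh5 and Kdr were highest in DMXAA 1. Emcn, a sialomucin of capillaries and veins, was at 0.84 ± 0.22 (adjusted p = 0.0811) and Egfl7, a factor secreted by endothelium, at 0.95 ± 0.26 (adjusted p = 0.0915).

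Adhesion molecules for leukocytes had no called member among 16 by limma or limma-voom, with 5 at an unadjusted p below 0.05 and 3 called in DMXAA 1 and 4. Vcam1, the ligand of integrin alpha 4 beta 1, was at 0.23 ± 0.17 (adjusted p = 0.440) and Icam1, the ligand of LFA-1, at -0.26 ± 0.35 (adjusted p = 0.679), the latter at 0.33 in DMXAA 1 and 4. E-selectin (Sele) stood at 0.142, 0.121 and 0.0593 CPM with vehicle and at 1.48, 0.528, 0.277 and 0.256 CPM with DMXAA (1.96 ± 0.63, adjusted p = 0.157). P-selectin (Selp) stood at 10 CPM in DMXAA 1 and at 0.830 to 2.55 CPM in the other 6 tumours.

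Of 23 genes of clotting and its breakdown 1 rose, where 1.08% of all genes did, and none was called by limma-voom. The list had 10 genes at an unadjusted p below 0.05, a median of 0.17 and 4 called in DMXAA 1 and 4. Serpinb2, an inhibitor of plasminogen activators, stood at 0.925, 0.545 and 0.652 CPM with vehicle and at 29.5, 2.57, 9.15 and 50.2 CPM with DMXAA (4.25 ± 0.83, adjusted p = 0.0228). Its call ended without any 1 of the vehicle tumours (adjusted p of up to 0.116). Procr, the endothelial receptor of protein C, stood close to vehicle in DMXAA 2, with 17.2 CPM in DMXAA 2 against 13.6 to 15.1 CPM with vehicle and 28.3 to 41.2 CPM in the other DMXAA tumours. It was at 1.05 ± 0.26 (adjusted p = 0.0626). Plaur, the urokinase receptor, was at 0.54 ± 0.13 (adjusted p = 0.0622) and F3, tissue factor, at 0.42 ± 0.29 (adjusted p = 0.408).

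Of 23 genes of antigen presentation by MHC class I 3 rose and 2 were called by limma-voom. There were 21 positive changes and a median of 0.54, 0.35 in DMXAA 1 and 4. The non-classical gene H2-T22 stood at 247, 283 and 165 CPM with vehicle and at 409, 551, 451 and 378 CPM with DMXAA (0.97 ± 0.18, adjusted p = 0.0170). H2-T23, which encodes Qa-1, rose by 1.03 ± 0.22 (adjusted p = 0.0375), and H2-Q10 by 3.03 ± 0.51 (adjusted p = 0.0105). Class I genes are near copies of one another, so reads may have been shared between them. The 3 calls ended without vehicle 1 or vehicle 3 (adjusted p of up to 0.211), and that of H2-T23 also without DMXAA 1 or DMXAA 3, in DMXAA 1 and 4 and with the length trend removed. H2-K1 was at 0.67 ± 0.16 (adjusted p = 0.0611). None of 14 class II genes was called by limma or limma-voom, with 2 at an unadjusted p below 0.05. Of the 14, 2 had a positive change, and the median was -0.40, and -0.90 in DMXAA 1 and 4. Their mean log2 CPM was 5.42 to 5.46 with vehicle and 4.997, 5.74, 5.02 and 4.29 in DMXAA 1 to 4. Ciita, the master activator of class II genes, stood at 55.5, 56.2 and 48.2 CPM against 28.1, 22.8, 16.7 and 12.5 CPM. Every DMXAA value of Ciita was below vehicle, but its change of -1.47 ± 0.49 was not called (adjusted p = 0.172).

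Of 25 genes of cell death 3 rose and 1 was called by limma-voom, with 10 at an unadjusted p below 0.05 and a median of 0.30. Bcl2l1, which encodes the survival protein BCL-XL, rose by 0.74 ± 0.14 (adjusted p = 0.0187). Ninj1, which ruptures the membrane of dying cells, rose by 0.75 ± 0.15 (adjusted p = 0.0283) and Casp1, the inflammasome protease, by 0.73 ± 0.15 (adjusted p = 0.0314). The call of Bcl2l1 held in DMXAA 1 and 4 and with the length trend removed, and those of Ninj1 and Casp1 ended in both. All 3 ended without vehicle 1 or vehicle 3 (adjusted p of up to 0.191), those of Ninj1 and Casp1 also without DMXAA 3.

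Of 29 immediate early and stress genes 3 rose and none was called by limma-voom, with a median of 0.40. Dusp1, a phosphatase that switches off MAP kinases, stood at 11.8, 11.4 and 10.6 CPM with vehicle and at 46.2, 17.8, 28.8 and 59.0 CPM with DMXAA (1.61 ± 0.36, adjusted p = 0.0454). Ier3 rose by 1.11 ± 0.23 (adjusted p = 0.0312) and the transcription factor gene Klf6 by 0.53 ± 0.12 (adjusted p = 0.0487). Each of these calls ended in at least 4 of the 7 fits that left out 1 tumour, without vehicle 1 or vehicle 3 in every case, with adjusted p of up to 0.253. Those of Dusp1 and Klf6 also ended without DMXAA 1 or DMXAA 4, Dusp1 and Ier3 without vehicle 2 or DMXAA 3, and Klf6 without DMXAA 2. That of Ier3 ended in DMXAA 1 and 4, and those of Ier3 and Dusp1 with the length trend removed.

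Iron storage and haem breakdown moved in part. In the list of iron and metal handling 1 of 15 was called by limma-voom, and 2 rose in the reported fit, Lcn2 and Ftl1. Ftl1, the light chain of ferritin, stood at 425, 529 and 574 CPM with vehicle and at 980, 1760, 1157 and 905 CPM with DMXAA (1.20 ± 0.21, adjusted p = 0.0129), was called in DMXAA 1 and 4 (0.90) and lost its call without vehicle 1 (0.0876). Fth1, the heavy chain, was at 0.82 ± 0.20 (adjusted p = 0.0569). Hmox1, the enzyme that degrades haem, stood at 118, 85.4 and 120 CPM against 411, 118, 319 and 465 CPM (1.45 ± 0.40, adjusted p = 0.0996), with DMXAA 2 at the vehicle level, and was called in DMXAA 1 and 4 (2.03). Adm (adrenomedullin), of the hypoxia list, was at 1.78 ± 0.44 (adjusted p = 0.0633). None of the 28 hypoxia and glycolysis genes was called by limma or limma-voom, with 5 at an unadjusted p below 0.05 and a median of 0.04.

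Metrnl and Creg1 also belonged to the firmest changes. Metrnl, a secreted relative of meteorin, rose from 22.1, 26.9 and 28.5 CPM to 65.8, 88.3, 53.9 and 54.9 CPM (1.33 ± 0.16, adjusted p = 0.00198). Creg1, a glycoprotein of lysosomes, stood at 47.5, 45.6 and 47.7 CPM against 75.1, 82.9, 66.3 and 72.2 CPM. The change of Creg1 was small (0.65 ± 0.09, adjusted p = 0.00402), and its values within each group lay close together.

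Of the 30 genes that fell, 10 fell by at least 2-fold. Pkp1, a plakophilin of desmosomes, fell most and was the only lower gene whose call held with each tumour left out. It stood at 0.854, 3.03 and 0.830 CPM with vehicle and at 0.0953, 0.226, 0.0693 and 0.102 CPM with DMXAA (-3.21 ± 0.52, adjusted p = 0.00841). The DMXAA levels rest on 1 to 3 reads. Its call held in DMXAA 1 and 4 (-3.43) and with the length trend removed (-3.12), and ended in the fit to the 7 tumours alone (adjusted p = 0.191) and without the muscle-rich tumours (0.186). Gpbar1, a membrane receptor for bile acids, stood at 1.35, 0.787 and 0.712 CPM against 0.0476, 0.151, 0.0693 and 0.102 CPM (-3.03 ± 0.56, adjusted p = 0.0170), again from 1 or 2 reads with DMXAA. It was called in both checks and lost its call without vehicle 1 or vehicle 3 (adjusted p of up to 0.112). Both genes were named after their values were seen.

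Unc13a, which primes vesicles for release, stood at 15.5, 10.2 and 12.6 CPM with vehicle and at 6.48, 5.66, 5.68 and 5.83 CPM with DMXAA (-1.09 ± 0.17, adjusted p = 0.00573). It was called in DMXAA 1 and 4 (-1.03), with an adjusted p of 0.0529 with the length trend removed and 0.0514 without vehicle 1. Ccdc141 fell by 0.92 on the log2 scale (SE 0.17, adjusted p = 0.0160), was called in DMXAA 1 and 4 and lost its call with the trend removed and without vehicle 1 or vehicle 3 (0.110). Hmcn1, a large extracellular matrix protein, stood at 20.3, 9.56 and 18.8 CPM against 4.29, 4.38, 3.81 and 7.21 CPM (-1.69 ± 0.32, adjusted p = 0.0197). Its adjusted p was 0.0901 in DMXAA 1 and 4, 0.0528 with the trend removed and up to 0.129 without vehicle 1 or vehicle 3. Plxnb1, a semaphorin receptor (-1.13 ± 0.23, adjusted p = 0.0246), and Sorcs2, a sorting receptor (-0.88 ± 0.18, adjusted p = 0.0283), stayed called with the trend removed but not in DMXAA 1 and 4.

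The calls of Plxnb1 and Sorcs2 ended without vehicle 1, vehicle 3 or DMXAA 3 (adjusted p of up to 0.191). Lpin1, a phosphatase of lipid synthesis (-0.99 ± 0.20), Kif26b (-1.01 ± 0.23) and the noncoding RNA Dnm3os (-0.95 ± 0.22) lost their calls in both checks and without vehicle 1, vehicle 3 or DMXAA 3 (adjusted p of up to 0.263). Kif26b and Dnm3os also lost theirs without DMXAA 1, Kif26b without DMXAA 2 and Dnm3os without DMXAA 4. Sec16b (-0.87 ± 0.20) stayed called with the trend removed, and ended in DMXAA 1 and 4 and without any vehicle tumour or DMXAA 3 (adjusted p of up to 0.282). The transcript AA414992 (-1.43 ± 0.32, adjusted p = 0.0455) stayed called in both checks, and lost its call without vehicle 1, vehicle 3, DMXAA 1, DMXAA 3 or DMXAA 4 (adjusted p of up to 0.233).

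Of 20 matrix genes with long transcripts 1 fell, Hmcn1, with a median of -0.46, and the median was 0.09 in DMXAA 1 and 4. Fn1, fibronectin, stood at 2758, 2315 and 2656 CPM with vehicle and at 1352, 622, 824 and 1906 CPM with DMXAA (-1.26 ± 0.31, adjusted p = 0.0614), and its lowest values were in DMXAA 2 and 3. It was at -0.68 in DMXAA 1 and 4 and was called with the trend removed (-1.03, adjusted p = 0.0307). Col6a2, a chain of collagen VI, stood at 1364, 760 and 1154 CPM against 601, 353, 619 and 690 CPM (-0.95 ± 0.22, adjusted p = 0.0470), and its partner Col6a1 was at -0.94 ± 0.22 (adjusted p = 0.0554). The call of Col6a2 held with the trend removed, and ended in DMXAA 1 and 4 (-0.72, adjusted p = 0.0629) and without vehicle 1, vehicle 3, DMXAA 1 or DMXAA 3 (adjusted p of up to 0.269). In the fibroblast list 1 of 20 rose and none was called by limma-voom, with a median of 0.29. Mfap5, a protein of elastic microfibrils, stood at 6.05, 5.75 and 6.29 CPM against 24.9, 14.5, 14.3 and 14.6 CPM (1.45 ± 0.32, adjusted p = 0.0440). The call of Mfap5 ended in both checks and without any vehicle tumour, DMXAA 1 or DMXAA 3 (adjusted p of up to 0.173).

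Lists with short transcripts moved with DMXAA 2 and 3. The 34 ribosomal protein genes had a mean log2 CPM of 9.27 to 9.59 with vehicle and of 9.13, 10.99, 10.03 and 9.28 in DMXAA 1 to 4, and the 32 genes of oxidative phosphorylation 5.80 to 6.13 and 5.80, 7.61, 6.60 and 5.80. Neither list had a called gene by limma or limma-voom, and 0 and 1 gene had an unadjusted p below 0.05. Their medians were 0.45 and 0.51, and -0.23 and -0.18 in DMXAA 1 and 4. Cell cycle genes were level, with a median of 0.13, no called gene of 28 by limma or limma-voom and 0 at an unadjusted p below 0.05. Mki67, the proliferation marker Ki-67, was at -0.32 ± 0.18 (adjusted p = 0.341).

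Other tissue was present in some tumours. Skeletal muscle markers summed to 31.2, 226 and 41.5 CPM in vehicle 1 to 3 and to 1118, 15.6, 545 and 19.5 CPM in DMXAA 1 to 4, and Acta1, the muscle actin, stood at 57.9 CPM in vehicle 2 and at 291 and 194 CPM in DMXAA 1 and 3. None of the 17 was called, with 0 at an unadjusted p below 0.05 and a median of 0.95, by limma or limma-voom. The part of muscle and fat in the changes above was not tested beyond the values given. Without the muscle-rich tumours (vehicle 2, DMXAA 1, DMXAA 3 and a BO-112 tumour) 24 genes were called, 21 of them among the 221. Epithelial genes gave little check of the tumour cells, since 8 of the 16 listed were measured and they summed to 21.2 to 94.4 CPM over the 7 tumours. Of the 8, none was called, 3 had a positive change and the median was -0.09. Krt19 was at 3.09 ± 0.82 (adjusted p = 0.0850), from at most 0.121 CPM with vehicle. Epcam was at -2.09 ± 0.84 (adjusted p = 0.238) and Cdh1 at -1.09 ± 0.49 (adjusted p = 0.268).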

How the data were processed

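Stranded mRNA libraries of 15 tumours were analysed, of which 7 are compared here. The deposited table holds log2 CPM with 0.5 reads added before the log and a scaling factor for each library, as its values show. Alignment with STAR to mm39 and the use of limma are named in the submitters' processing notes; settings are not given in the sources used here. Reads per gene were recovered from the deposited log2 values as whole numbers for 100% of values (tolerance 1e-06). They sum to 13073772 to 15737746 per vehicle library and 14710769 to 19660511 per DMXAA library. The deposited raw count table names no samples, so its 15 value columns were not used.

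Limma 3.58.1 (R 4.3.3) modelled those log2 values across the 15 libraries, with a mean per group, an intensity trend and robust moderation. CPM levels printed omit the added 0.5 reads. Symbols and transcript lengths came from GENCODE M21 (17636 of 17712 genes), which lies on another build than the authors'. The only coordinates given are those of the 4 promoter windows, on GRCm38.p6 and not on the authors' build. The length trend was a spline with 4 degrees of freedom on log2 length, fitted to each library's deviation from the gene mean. The script was tested on simulated data.

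The 37 gene lists and the rule for named genes were chosen with earlier results of these data known. The rule takes the 12 largest changes in each direction among calls with a mean of at least 1 CPM over the 7 tumours and no overlap between groups, leaving out receptor segments, mitochondrial genes, pseudogenes and clones without a name; the 20 smallest p-values among calls of at least 1 CPM that held with each tumour left out; the 3 smallest p-values of each list; and a fixed panel. Not all are printed, and Pkp1 and Gpbar1, below 1 CPM, were added after their values were seen. The promoter motifs printed are shorter than those searched at the start and were set after counts for the longer ones had been seen; their shares are descriptions only. Results for some genes are not reported here.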

Additional observations from a re-analysis of the deposited data

Results flagged for a closer look

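In 143 sets of 4 DMXAA values (genes and lists), 5 had a tumour whose gap to the nearest other, divided by the range of the 4, exceeded the 95% critical value of Dixon's test, where chance gives about 7.2. DMXAA 1 was highest in 4 of them. Mfap5 stood at 24.9 CPM there against 14.3 to 14.6 CPM in the others (gap over range 0.965). Lpin1 stood at 13.5 CPM against 10.3 to 10.5 CPM (0.931). Selp stood at 10 CPM against 0.830 to 1.23 CPM (0.850). The monocyte list had a mean log2 CPM of 6.36 against 5.48 to 5.601 (0.863). DMXAA 2 was lowest for Csf1r, with 276 CPM against 319 to 321 CPM (0.943). The gap is measured on the log2 scale.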

How the results depend on the processing

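The count of called genes, 221 as reported, was 105 with scaling by total count, 93 with limma-voom, 4 in the fit to the 2 groups alone, 351 with array quality weights, 373 without DMXAA 2 and 3, 24 without the muscle-rich tumours and 25 to 376 with 1 tumour left out. It was 217 with scaling by ratios to a geometric mean, 210 with only genes that reached 1 CPM in 3 libraries and 153 with the length trend removed. A count-model test on the recovered reads was planned and not run. Scaling by total count shifted the median change of all genes by -0.126. With the replicate number as a block the count was 283 (181 with the length trend removed too). Same-numbered vehicle and DMXAA tumours had correlations of 0.224, -0.156 and 0.031, and differently numbered ones -0.319 to 0.359. So few pairs cannot tell whether a number marks a shared animal, litter or day, and no label says so. Of 64 reported calls, none reversed in any fit, which follows largely from calling them on these same tumours. In the fit to the 2 groups alone 4 were kept, without vehicle 1 19, without vehicle 3 27, by limma-voom 36, with total count 50, with the block 60, without DMXAA 2 and 3 49, with the length trend removed 45 and 14 without the muscle-rich tumours. The cause was not tested. Sign changes were seen for genes not called. Pecam1 was -0.07 with total count and -0.005 without the muscle-rich tumours, Cdh5 0.16 with array weights and 0.41 without DMXAA 2 and 3, and Icam1 0.06 and 0.33 likewise. Selp was -0.003 with total count and -0.90 without the muscle-rich tumours, where Acta1 was -2.38. With 1 tumour left out, the ranges that crossed 0 were -0.21 to 0.03 for Tmem173, -0.71 to 0.94 for Cxcl9, -0.06 to 0.93 for Cxcl10, -0.15 to 0.01 for Adgre1, -0.13 to 0.16 for Pecam1, -0.50 to 0.11 for Cdh5, -0.69 to 0.49 for Selp, -0.52 to 0.08 for Icam1 and -1.0 to 2.77 for Acta1. Genes near or below 1 CPM rest on few reads.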
